A study of Mus musculus with 6 samples.

Results

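Genes of ribosome biogenesis and the nucleolus were compared between livers of Atp7b-/- mice and livers of wild type mice. The set holds 47 nucleolar and ribosome assembly genes that count as classic targets of the growth regulator Myc. Members were picked by gene symbol, and all 47 symbols were found among the 41388 Ensembl identifiers of the deposited count table. There were 3 Atp7b-/- libraries and 3 wild type libraries. Atp7b encodes an ATPase that pumps copper out of hepatocytes and whose loss causes Wilson disease in people. Which stretch of the gene was disrupted, and with what construct, is not stated in the labels. Mice of both genotypes were 6 weeks old, were of the mixed C57BL and 129S6/SvEv background and ate the same diet with 16 ppm copper, and whole liver RNA was sequenced. Reads were paired-end for Atp7b-/- replicate 3 and wild type replicate 1 and single-end for the remaining 4 libraries, a difference called layout here.

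Ribosomes are assembled in the nucleolus. RNA polymerase I transcribes the precursor of the ribosomal RNAs, small nucleolar ribonucleoproteins (snoRNPs) guide the chemical modification of that precursor, and large sets of assembly factors fold, cleave and export the small and the large subunit. Myc, which binds the E-box CACGTG together with Max, is a textbook activator of these genes, and in liver they are known to be induced when hepatocytes grow after partial hepatectomy.

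Levels are in CPM, counts as a share of the library after TMM scaling. Atp7b itself had 19.2, 13.7 and 13.3 CPM in Atp7b-/- replicates 1 to 3, below all wild type libraries at 25.3, 85.2 and 59.7 CPM. Its log2 fold change was -1.73 (adjusted p = 0.02, edgeR), and those of the cell cycle inhibitor gene Cdkn1a and the metallothionein genes Mt1 and Mt2 were 5.31, 3.66 and 3.98, all called. These calls depended on the fit. Of 15 alternative fits, 10 called Atp7b, 11 Cdkn1a, 8 Mt1 and 13 Mt2. Since the lesion is not placed, reads elsewhere in the gene can still count. Total counts were 5919389 to 25973968 per library, and the lowest count of any of the 47 genes in any library was 24 (Noc3l in wild type replicate 3). All 47 genes passed the filter on low counts. All 10 hepatocyte markers were detected, with summed levels of 57140 to 76120 CPM in Atp7b-/- livers and 81820 to 115600 CPM in wild type livers, and none of the 10 passed the test. Markers of cycling cells summed to 44.5 to 53.7 CPM in Atp7b-/- livers and 7.14 to 12.4 CPM in wild type livers, and 5 of 7 measured ones rose. Erythroid markers summed to 224 to 319 CPM in Atp7b-/- livers and 51.1 to 220.0 CPM in wild type livers, and none of 4 measured ones was called. Cholangiocyte markers summed to 60.8 to 97.8 CPM in Atp7b-/- livers and 42.6 to 62.1 CPM in wild type livers, with none of 6 called. Pancreatic acinar markers summed to 21.9 to 41.6 CPM in Atp7b-/- livers and 11.0 to 22.2 CPM in wild type livers, with 1 of 3 measured ones, Spink1, called higher and 3 of the 8 listed at 0 in every library. Whether these shifts bear on the nucleolar genes was not tested. In bulk liver RNA, fewer cells of a type and less RNA per cell cannot be told apart. Atp7b-/- replicate 3 is labelled female but had 0.482 CPM of Xist, an RNA of female cells, and 126 CPM of the Y-linked gene Ddx3y. Wild type replicate 3, also labelled female, had 17.4 CPM of Xist and 28.0 CPM of Ddx3y, while wild type replicate 2 had 371 CPM of Xist and 0.34 CPM of Ddx3y. Atp7b-/- replicates 1 and 2 had 0.117 and 0.702 CPM of Xist and 29.5 and 37.7 CPM of Ddx3y. Wild type replicate 1 had 1.01 CPM of Xist and 161 CPM of Ddx3y. By these transcripts every Atp7b-/- library looked male and wild type replicate 2 female, so sex is not balanced between genotypes. Nothing in the labels states that each library is a separate animal, so the p-values reflect library-to-library spread that may be technical.

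Myc transcripts fell in Atp7b-/- livers. Myc (chromosome 15, 61985391 to 61990374, plus strand, GRCm38) had 5.95, 6.59 and 2.79 CPM in Atp7b-/- replicates 1 to 3, against 30.4, 59.1 and 51.9 CPM in the wild type ones. The groups did not overlap, and the log2 fold change was -3.25, a 9.53-fold lower level (SE 0.21, 95% interval -3.72 to -2.78, adjusted p = 0.000411, edgeR's quasi-likelihood test with sequencing layout as a term and Benjamini-Hochberg adjustment over 12988 genes). The call of Myc was lost with no layout term (adjusted p = 0.109) and with labelled sex replacing layout (0.491), where no gene at all was called. No nucleolar gene was called in the main test at an adjusted p under 0.05, against 2.49% of all genes tested (1.9% higher and 0.585% lower). Of the 47, 26 had a positive and 21 a negative log2 fold change, and the median was 0.03, against -0.01 over all genes. Only 2 of the 47 had an unadjusted p under 0.05, Utp20 above and Rrs1 below wild type, where 14.5% of all genes did. DESeq2 called 1 of the 47, Utp20 (5.93% of all genes, 3.6% higher), and limma-voom none (3.05%, 2.23% higher).

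The sizes of change were small next to that of Myc. Log2 fold changes ran from -0.61 (Rrs1) to 0.72 (Utp20), with standard errors of 0.18 to 0.43, and only Utp20, Rrs1 and Ncl lay more than 0.5 from 0. The 95% interval stayed within a 2-fold change in both directions for 39 of the 47 genes (83.0%), as it did for 56.3% of all genes tested. It reached beyond 2-fold upward for Utp20, Nop10, Nop58 and Rrp12, and downward for Ncl, Rrs1, Fbl and Rrp9. The lowest bound of any interval was -1.46 (Ncl), so that none extended to the interval of Myc. These intervals are unadjusted and rest on 3 libraries a group.

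**Figure D1:**
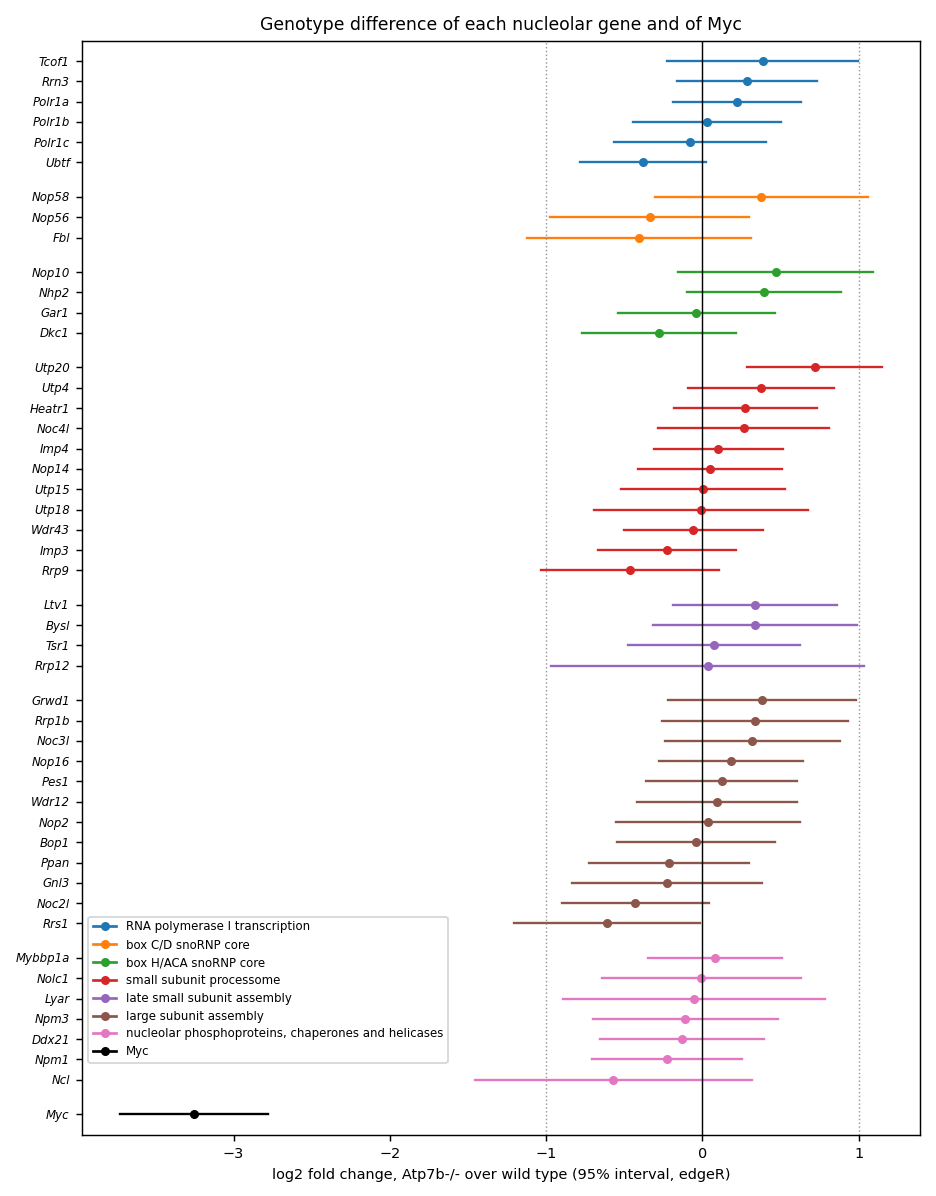
Log2 fold change (x axis, Atp7b-/- over wild type) of each of the 47 nucleolar genes, grouped by role, and of Myc, with 95% intervals from edgeR as lines and dotted lines at 2-fold. The nucleolar genes lie between -0.61 and 0.72, and Myc lies at -3.25 with an interval that none of theirs reaches.

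Promoters were searched for the E-box of Myc. RefSeq promoters (build GRCm38.p6, 250 bases before to 50 after the start site) were at hand for 41 of the 47 genes, and 12 of these (29.3%) contained CACGTG, which reads the same on both strands. The share was 11.8% of 9972 genes tested that have a promoter in the table and 8.09% of all 27025 genes in it. Of the 13 matches, 8 began downstream of the start site. The matches are shown with up to 12 flanking bases for the 3 genes with the smallest and the 3 with the largest p among the 12, so that E-box sequence and response can be set side by side. Capitals mark CACGTG.
Utp20 (chr10:88826765-88826789, minus strand): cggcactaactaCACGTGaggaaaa
Utp4 (chr8:106893643-106893672, plus strand): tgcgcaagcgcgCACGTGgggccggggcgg
Ltv1 (chr10:13193092-13193121, minus strand): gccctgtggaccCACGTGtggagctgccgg
Wdr43 (chr17:71616220-71616249, plus strand): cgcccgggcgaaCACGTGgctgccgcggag
Nop2 (chr6:125131811-125131840, plus strand): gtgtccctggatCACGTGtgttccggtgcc
Utp18 (chr11:93885769-93885798, minus strand): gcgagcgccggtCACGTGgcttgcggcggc
Counted from the start site, the match began at base 38 in Utp20, 16 in Utp4, 29 in Ltv1 and 18 in Wdr43, and at -60 in Nop2 and -20 in Utp18. The 12 genes with the motif had a median log2 fold change of 0.11, with 10 positive, and the 29 without it one of -0.01, with 14 positive. Over all genes tested 49.1% were positive. The share among all tested genes with the motif was not computed, and the 12 and the 29 were not compared by a test. None of the 12 passed the test, where 2.49% of all genes tested did. A match is a run of letters and not a shown binding site.

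None of the 6 genes of RNA polymerase I transcription passed the test, where 2.49% of all genes tested did. Ubtf, which encodes the factor UBF that opens ribosomal DNA for the polymerase, had 84.5, 94.8 and 48.8 CPM in Atp7b-/- replicates 1 to 3, against 56.6, 120 and 127 CPM in the 3 wild type livers. Within each layout every Atp7b-/- library was below every wild type one, but the paired-end libraries were low in both genotypes, so the groups overlapped. Its log2 fold change was -0.38 (SE 0.18, adjusted p = 0.383). Rrn3, which encodes the initiation factor TIF-IA, had 19.8, 24.0 and 35.4 CPM in Atp7b-/- livers, against 34.5, 15.9 and 16.7 CPM in wild type livers. The paired-end libraries were the high ones here, and the log2 fold change was 0.29 (SE 0.20, adjusted p = 0.566). Tcof1, whose product treacle joins UBF to the polymerase, had 18.6, 11.6 and 9.57 CPM in Atp7b-/- livers and 5.94, 15.0 and 10.8 CPM in wild type livers (log2 fold change 0.39, SE 0.27, adjusted p = 0.574). The polymerase subunit genes Polr1a, Polr1b and Polr1c had log2 fold changes of -0.08 to 0.22. Polr1a, the gene of the largest subunit, was the only 1 of the 47 whose CPM ranges did not overlap, with 28.3 to 30.7 CPM in Atp7b-/- livers, against 22.4 to 27.8 CPM in wild type livers. Ranges did not overlap in 8.51% of all genes tested, with Atp7b-/- above in 5.23% and below in 3.28%, and the adjusted p of Polr1a was 0.638.

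**Figure D2:**
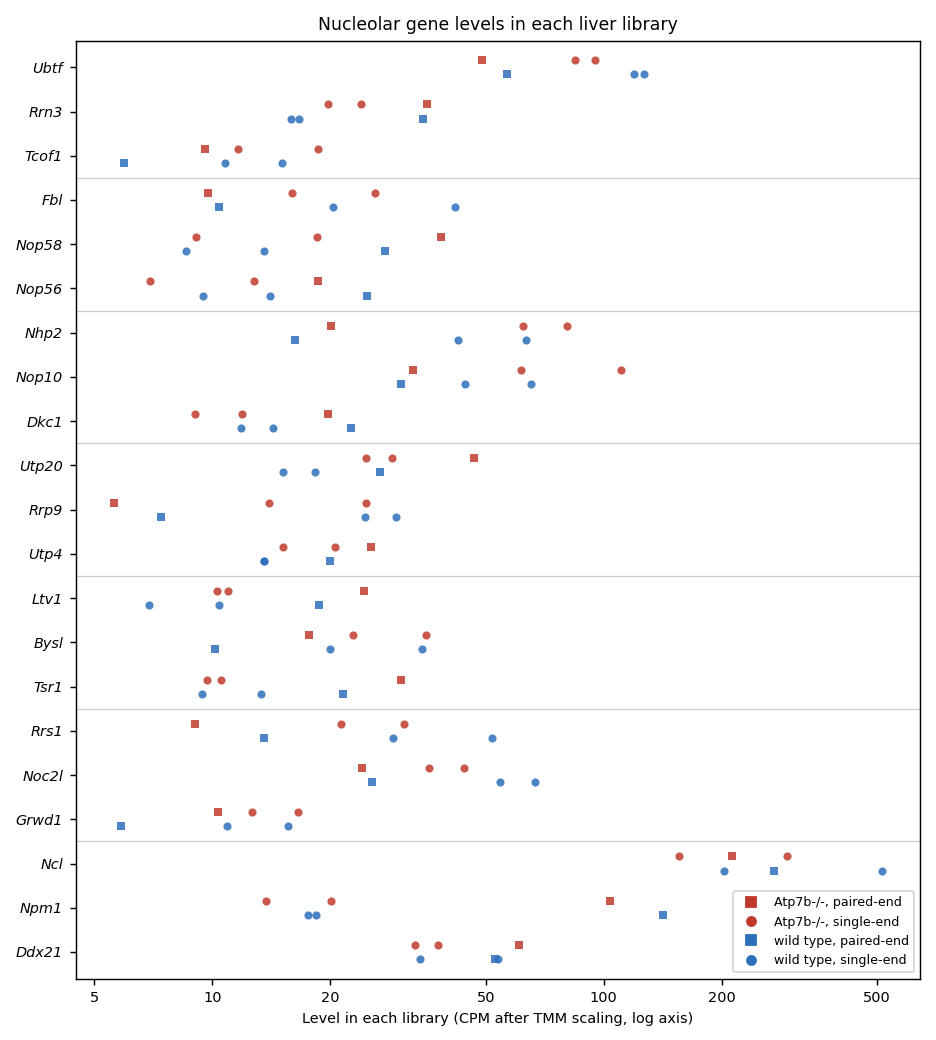
Level in each library (x axis, CPM after TMM scaling, log axis) of the 3 genes of each role with the smallest p, with Atp7b-/- libraries in red above wild type libraries in blue, squares for paired-end and circles for single-end libraries. In most rows the squares stand apart from the circles of both genotypes, as for Npm1 at 104 and 142 CPM against 13.7 to 20.1 CPM.

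The core proteins of the snoRNPs showed differences of either sign, none of which passed the test, where 2.49% of all genes tested did. In the box C/D class, which carries out ribose methylation, Fbl encodes the methyltransferase fibrillarin. It had 16.0, 26.1 and 9.75 CPM in Atp7b-/- replicates 1 to 3, against 10.4, 20.4 and 41.7 CPM in the 3 wild type livers (log2 fold change -0.40, SE 0.31, adjusted p = 0.624). Its partners Nop56 and Nop58, which are paralogous scaffold proteins, had log2 fold changes of opposite sign. Nop56 averaged 12.8 ± 5.85 CPM in Atp7b-/- and 16.1 ± 7.91 CPM in wild type livers (SD, n = 3 each), with a log2 fold change of -0.34 (adjusted p = 0.646). Nop58 had 9.09, 18.5 and 38.4 CPM in Atp7b-/- livers, against 27.6, 8.58 and 13.5 CPM in wild type livers, with one of 0.38 (adjusted p = 0.633). Both signs held within each layout, at -0.41 and -0.29 for Nop56 and 0.48 and 0.27 for Nop58 in paired-end and single-end libraries, and the difference between the paralogs was not tested. In the box H/ACA class, which converts uridine to pseudouridine, Nop10 and Nhp2 had positive log2 fold changes, and Dkc1 and Gar1 negative ones. Nop10 had 111, 61.5 and 32.5 CPM in Atp7b-/- livers, against 30.3, 65.4 and 44.1 CPM in wild type livers, which gave a log2 fold change of 0.47 with an SE of 0.28 (adjusted p = 0.493). Nhp2 had 62.2, 80.4 and 20.1 CPM in Atp7b-/- livers, against 16.3, 42.3 and 63.4 CPM in wild type livers, and one of 0.39 (SE 0.22, adjusted p = 0.465). Within the single-end libraries Nop10 and Nhp2 were high in 1 Atp7b-/- library each and otherwise overlapped with wild type. Dkc1, the X-linked gene of the pseudouridine synthase dyskerin, averaged 13.6 ± 5.51 CPM in Atp7b-/- and 16.3 ± 5.69 CPM in wild type livers (log2 fold change -0.28, adjusted p = 0.627), and Gar1 stood at -0.04.

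Among factors of the small subunit processome, the particle that cuts the precursor around the U3 snoRNA, Utp20 had the smallest p of all 47 genes. Utp20 (chromosome 10, 88746607 to 88826804, minus strand), which encodes a very large scaffold protein, had 28.9, 24.7 and 46.8 CPM in Atp7b-/- replicates 1 to 3, against 26.8, 18.3 and 15.2 CPM in the 3 wild type livers. Within each layout every Atp7b-/- library was above every wild type library, while across layouts the paired-end wild type library lay above 1 single-end Atp7b-/- library. The log2 fold change was 0.72, a ratio of 1.65 (95% interval 1.22 to 2.22), with an adjusted p of 0.105. DESeq2 called it (adjusted p = 0.0231), as did edgeR with no filter on low counts (0.0387; 4.44% of genes called there, 2.67% higher), and the other 13 alternatives did not. Its size was 0.56 to 0.82 over all 15. Utp4, whose product belongs to the t-UTP group that also acts in transcription of the precursor, had 15.2, 20.6 and 25.4 CPM in Atp7b-/- livers, against 19.97, 13.6 and 13.5 CPM in wild type livers (log2 fold change 0.38, SE 0.21, adjusted p = 0.461). Utp20 and Utp4, like Wdr43 and Utp18 of the same role, are among the E-box genes printed above, which were picked by p. A link between E-box and response was not tested. Rrp9, which encodes a protein of the U3 snoRNP, had 13.9, 24.7 and 5.61 CPM in Atp7b-/- livers, against 7.40, 24.6 and 29.5 CPM in wild type livers, which gave a log2 fold change of -0.46 with an SE of 0.25 (adjusted p = 0.459). The other 8 genes of this role, Utp15, Utp18, Heatr1, Wdr43, Nop14, Noc4l, Imp3 and Imp4, lay between -0.23 and 0.28, with adjusted p of 0.593 to 0.996.

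All 4 genes of late small subunit assembly had positive log2 fold changes, and none was called. Over all genes tested 49.1% were positive and 2.49% called. Within layouts all 4 were positive in the paired-end pair and 2 in the single-end libraries, where Tsr1 stood at -0.15 and Rrp12 at -0.40. Ltv1, an export factor of the small subunit, had 10.3, 10.9 and 24.4 CPM in Atp7b-/- replicates 1 to 3, against 18.8, 6.88 and 10.4 CPM in the 3 wild type livers (log2 fold change 0.34, SE 0.23, adjusted p = 0.561). Bysl, which encodes bystin, had 22.9, 35.2 and 17.6 CPM in Atp7b-/- livers, against 10.1, 19.97 and 34.3 CPM in wild type livers (log2 fold change 0.34, SE 0.29, adjusted p = 0.659). The groups overlapped in both genes, with an Atp7b-/- library highest and a wild type library lowest in each. Tsr1 stood at 0.07 and Rrp12, the member with the largest standard error, at 0.03 (SE 0.43). Tsr1 shares 1240 of its 3837 exon bases with Srr on the opposite strand, so its counts are uncertain.

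None of the 12 genes of large subunit assembly passed the test, where 2.49% of all genes tested did. Rrs1 (chromosome 1, 9545408 to 9547455, plus strand), whose yeast counterpart helps to bring the 5S particle into the large subunit, had 21.3, 30.9 and 9.06 CPM in Atp7b-/- replicates 1 to 3, against 13.5, 28.9 and 51.9 CPM in the 3 wild type livers. Wild type replicate 3 was the highest library, and the rest overlapped. The log2 fold change was -0.61 (SE 0.26, 95% interval -1.21 to -0.02, adjusted p = 0.327), and it was -0.82 to -0.16 over the alternatives. Noc2l, whose yeast counterpart acts in transport of the early large subunit, had 35.7, 44.1 and 24.2 CPM in Atp7b-/- livers, against 25.5, 54.3 and 66.9 CPM in wild type livers (log2 fold change -0.43, SE 0.21, adjusted p = 0.395). It shares 598 of its 2867 exon bases with Samd11 on the opposite strand. Grwd1, whose yeast counterpart is a chaperone of a ribosomal protein, had 12.6, 16.6 and 10.4 CPM in Atp7b-/- livers, against 5.85, 10.9 and 15.6 CPM in wild type livers (log2 fold change 0.38, SE 0.27, adjusted p = 0.572). The genes of the PeBoW complex, which processes the large subunit RNA, stood at 0.12 (Pes1), -0.04 (Bop1) and 0.09 (Wdr12). The rRNA methyltransferase gene Nop2 stood at 0.04 and the nucleostemin gene Gnl3 at -0.23.

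Genes of abundant nucleolar proteins included the one whose interval reached lowest, though it also crossed 0. Ncl (chromosome 1, 86344719 to 86359400, minus strand), which encodes nucleolin, had 156, 293 and 212 CPM in Atp7b-/- replicates 1 to 3, against 273, 203 and 514 CPM in the 3 wild type livers. Wild type replicate 3 stood far above the rest, and the log2 fold change was -0.57 (SE 0.38, adjusted p = 0.558). Npm1 (chromosome 11, 33152287 to 33163206, minus strand), which encodes the nucleolar chaperone nucleophosmin, had 13.7, 20.1 and 104 CPM in Atp7b-/- livers, against 142, 18.4 and 17.6 CPM in wild type livers (log2 fold change -0.23, SE 0.21, adjusted p = 0.687). The high values are those of the paired-end libraries, and the paired-end level was 7.01-fold the single-end one in the fit. The annotation holds 4 pseudogenes at least 95% identical to its transcript over 200 bases or more, so its count is uncertain. Ddx21, an RNA helicase gene, had 32.9, 37.7 and 60.9 CPM in Atp7b-/- livers, against 52.7, 33.9 and 53.8 CPM in wild type livers (log2 fold change -0.13, SE 0.23, adjusted p = 0.852). Npm3, Nolc1, Lyar and the polymerase I regulator Mybbp1a lay between -0.11 and 0.08.

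These genes differed more between layouts than between genotypes. The paired-end libraries also had the most counts, 23651080 and 25973968, against 5919389 to 16597683 in the single-end ones. Layout therefore cannot be told apart from depth or from anything else that these libraries share. In the same fit 30 of the 47 (63.8%) differed between paired-end and single-end libraries, 13 higher and 17 lower in paired-end ones, as did 52.8% of all genes tested (27.2% higher in paired-end). The median size of the layout difference was 0.89 on the log2 scale, and that of the genotype difference 0.23, against 0.88 and 0.27 over all genes tested. Of the 47, 8 genes, Npm1, Nop56, Pes1, Fbl, Wdr12, Ddx21, Npm3 and Imp3, have at least 1 pseudogene of the identity given for Npm1. Their part in the layout difference was not tested.

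Within the paired-end pair the nucleolar genes were mostly higher in the Atp7b-/- library, and within the single-end libraries they were not. In paired-end libraries 34 of 47 log2 CPM differences were positive (72.3%, median 0.25), where 49.3% of all genes tested were. In single-end libraries 19 of 47 were positive (40.4%, median -0.12), where 50.2% of all genes were. Rrp12 was the most divergent gene, at 1.00 in paired-end and -0.40 in single-end libraries, while Utp20 stood at 0.80 and 0.68. A test of the genotype by layout term called none of the 47, where 0.0154% of all genes were called, and none had an unadjusted p under 0.05 (lowest 0.0859), where 4.57% of all genes did. The same term called none of the 47 in DESeq2 or limma-voom either (lowest adjusted p 1.0 and 0.894). The single-end Atp7b-/- libraries are labelled male and the single-end wild type ones female, and the paired-end ones the reverse. A genotype difference within a layout therefore cannot be told apart from one of labelled sex. By Xist and Ddx3y both paired-end libraries looked male, so the labels may not give the sex of each sample. The genotype by layout term equals a difference between labelled sexes. It rests on 1 paired-end library a genotype.

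**Figure D3:**
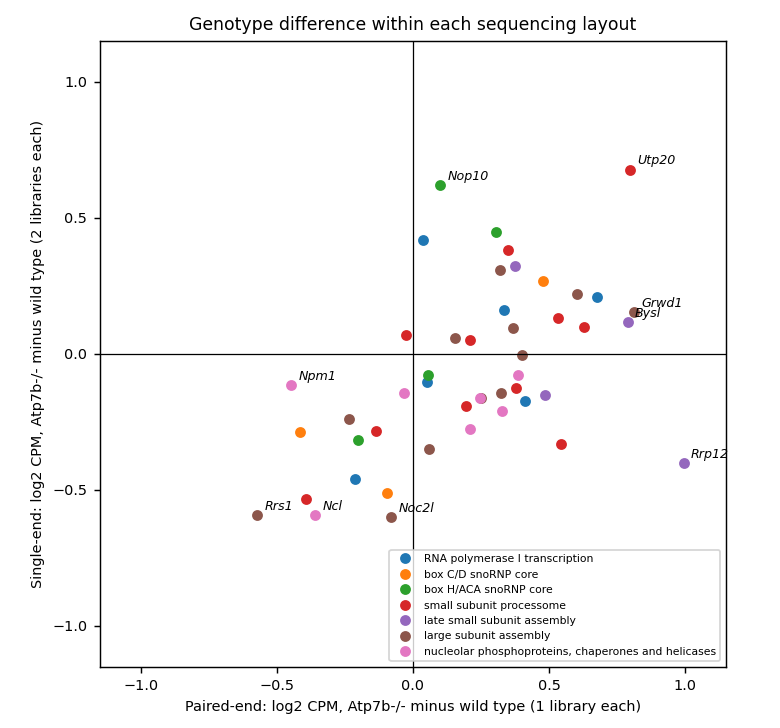
Log2 CPM difference, Atp7b-/- minus wild type, of each of the 47 genes in the paired-end libraries (x axis, 1 library a genotype) and in the single-end libraries (y axis, 2 libraries a genotype), coloured by role. Points lie mostly right of 0, with 34 of 47 positive on the x axis and 19 of 47 on the y axis.

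Libraries of 1 genotype also differed among themselves. The 47 genes summed to 1573 CPM at most in the other 5 libraries and to 1929.6 CPM in wild type replicate 3, which had the fewest counts. Set against the mean of the 4 single-end libraries, the median gene was at -0.12 in Atp7b-/- replicate 1, 0.09 in Atp7b-/- replicate 2, -0.17 in wild type replicate 2 and 0.22 in wild type replicate 3 on the log2 scale. The same median over all genes tested lay within 0.02 of 0 in each of them. The median log2 fold change of the set was 0.22 without wild type replicate 3 and 0.15 without Atp7b-/- replicate 1. It was -0.11 without wild type replicate 1 and -0.10 without Atp7b-/- replicate 3, and none of the 47 was called in any of the 6 fits that leave out 1 library. Without either paired-end library the layout term takes up the other one. Both of those fits therefore compare the single-end libraries alone, where the median was -0.11, and are not separate results.

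**Figure D4:**
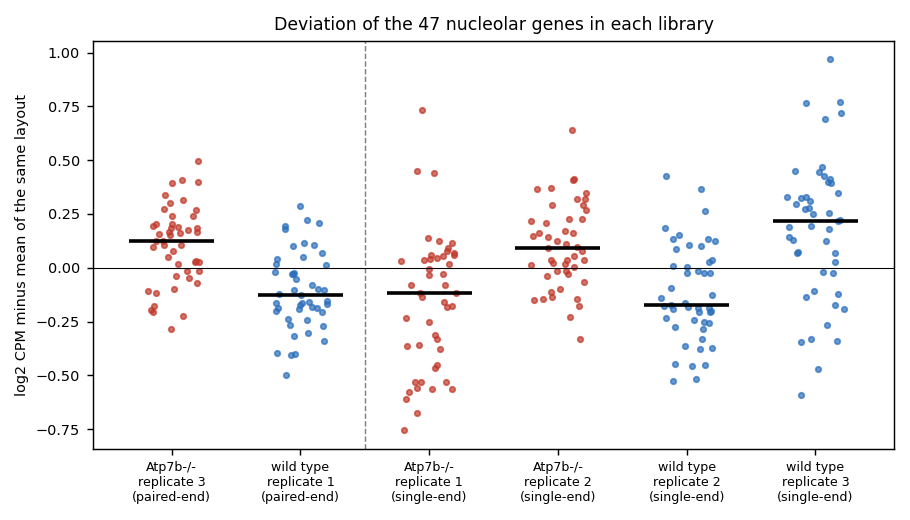
Deviation of each of the 47 genes (points) from its mean log2 CPM over the libraries of the same layout (y axis), by library, Atp7b-/- in red and wild type in blue, with the median as a bar and a dashed line between layouts. The medians of the 2 wild type single-end libraries, -0.17 and 0.22, lie farther apart than those of the 2 Atp7b-/- ones, -0.12 and 0.09.

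Levels per kilobase of exon differed far more between genes than between genotypes. Nop10 was highest, at 61.5 ± 35.7 CPM per kilobase in Atp7b-/- and 42.0 ± 15.9 in wild type livers (SD, n = 3 each), followed by Nhp2, Imp3, Ncl and Npm1. Neighbours in this order overlapped in their ranges over libraries. The order averages both layouts and differed between them. In the paired-end libraries Npm1, at 104 and 142 CPM, stood above Nop10 per kilobase. In the single-end ones Npm1 had 13.7 to 20.1 CPM and stood far below it. Rrp1b was lowest, at 1.11 ± 0.14 in Atp7b-/- and 0.87 ± 0.15 in wild type livers, and its log2 fold change was 0.34 (adjusted p = 0.622). Highest and lowest differed 52.3-fold on the mean of both genotypes, and 26 of the 47 lay between 0.5 and 2 times the median of 5.87 CPM per kilobase. Lengths are those of all annotated exons together, which lowers the value of genes with long rare isoforms.

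The rest of the ribosome pathway held 1 called gene. Of 130 measured assembly factors outside the set, listed for polymerase I, both subunits, snoRNP assembly, the exosome and RNase MRP, 1 rose and 129 did not pass the test, against 1.9% of all genes called higher. That gene was Rpp40 (chromosome 13, 35893472 to 35906359, minus strand), a protein subunit of RNase P. It had 21.2, 15.4 and 49.3 CPM in Atp7b-/- replicates 1 to 3, against 9.78, 5.61 and 3.52 CPM in the 3 wild type livers, without overlap. Its log2 fold change was 2.11 (SE 0.26, adjusted p = 0.00326), a 4.31-fold higher level. The call was lost without wild type replicate 1 (adjusted p = 0.0505) and without Atp7b-/- replicate 3 (0.0625), and the adjusted p was 7.45e-13 to 1 over all alternatives, with the log2 fold change at 1.71 or above. The fits without either paired-end library both compare the single-end libraries alone. Of the 130, 92 had positive log2 fold changes (70.8%, median 0.15), where 49.1% of all genes did (median -0.01). The exosome subunit gene Exosc8 (0.90, adjusted p = 0.0671) and the helicase gene Ddx52 (0.97, adjusted p = 0.123), named after their values were seen, were called by DESeq2.

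**Figure D5:**
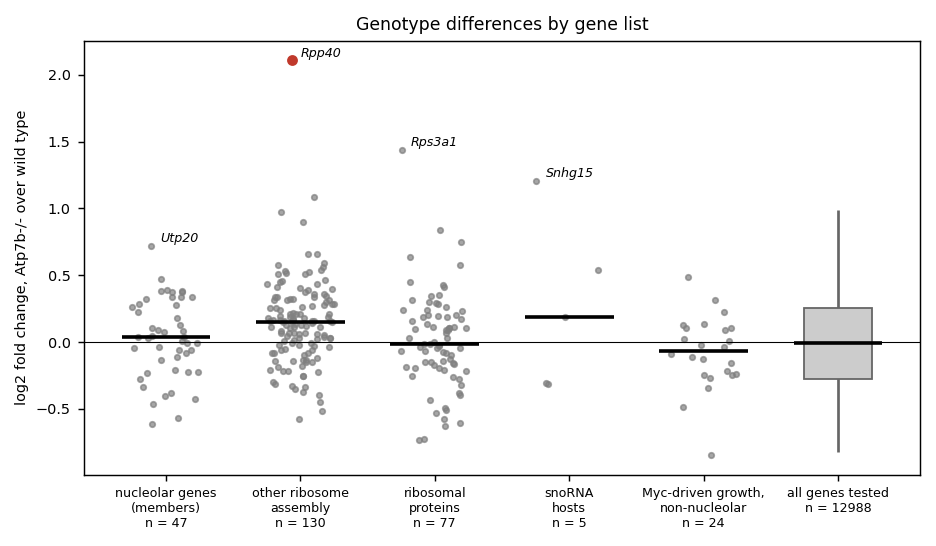
Log2 fold change (y axis, Atp7b-/- over wild type) of each measured gene of the nucleolar set and of 4 related lists, with medians as bars and the 1 called gene, Rpp40, in red. For all 12988 genes tested the box spans the middle 50% and the line the 5th to 95th percentile, and the medians of the lists lie between -0.06 and 0.18.

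The proteins that these factors assemble showed no called change either. None of 77 measured cytosolic ribosomal protein genes passed the test, 2 had an unadjusted p under 0.05, and neither DESeq2 nor limma-voom called any. Over all genes tested 2.49% were called, 14.5% had an unadjusted p under 0.05, and DESeq2 called 5.93% and limma-voom 3.05%. Of the 77, 38 had positive log2 fold changes, and the median was -0.02. The smallest p values belonged to Rpl15 (0.58, adjusted p = 0.282), Fau (-0.53, adjusted p = 0.332) and Rps3a1 (1.44, adjusted p = 0.377). Rps3a1 had 44.6, 42.2 and 69.9 CPM in Atp7b-/- livers, against 59.9, 15.6 and 4.08 CPM in wild type livers, and the low wild type libraries are the single-end ones. Its log2 fold change was 0.90 to 2.09 over the alternatives. Its only call came when wild type replicate 3 and Atp7b-/- replicate 3 were both left out. There the layout term takes up wild type replicate 1. Only wild type replicate 2 then remains in that group, so the call carries little weight. Ribosomal protein genes have many processed pseudogenes, so single genes are uncertain, and 52 of the 77 (67.5%) differed between layouts, as did 52.8% of all genes tested.

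Hosts of snoRNAs and other growth genes of Myc gave no call. Of 5 measured snoRNA host transcripts none passed the test and 1, Snhg15, had an unadjusted p under 0.05. Snhg15 had 3.73, 3.09 and 6.41 CPM in Atp7b-/- livers, against 4.07, 1.10 and 1.11 CPM in wild type livers (log2 fold change 1.21, SE 0.37, adjusted p = 0.155). Snhg5 stood at 0.54 and Snhg12 at -0.30. Among 24 growth genes outside the nucleolus that Myc is known to drive, none was called, 1 had an unadjusted p under 0.05, 10 log2 fold changes were positive (41.7%) and the median was -0.06. For these 24 genes and the snoRNA hosts the shares over all genes tested were 2.49% called, 14.5% with an unadjusted p under 0.05 and 49.1% positive, with a median of -0.01. The purine synthesis genes Gart and Ppat and the nucleotide kinase gene Nme1 had the smallest p. Gart averaged 26.8 ± 4.80 CPM in Atp7b-/- and 38.2 ± 10.7 CPM in wild type livers (SD, n = 3 each; log2 fold change -0.48, adjusted p = 0.31). Ppat had 16.7, 39.0 and 19.1 CPM in Atp7b-/- livers, against 66.6, 37.0 and 33.4 CPM in wild type livers (log2 fold change -0.84, SE 0.42, adjusted p = 0.424). Atp7b-/- replicate 2 was high, and without it Ppat was called (log2 fold change -1.38, adjusted p = 0.0345). Nme1 stood at 0.48 (adjusted p = 0.45).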

How the data were processed

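The authors deposited raw read counts for each Ensembl gene in a single table, not normalized, per the file headers and values. STAR 2.4, featureCounts, edgeR 3.8 and build GRCm38 are named in the submitters' processing notes. The annotation release, strand setting, multi-mapping rule and counting of read pairs are not stated there. Symbols, positions and exon lengths came from GENCODE M21 (GRCm38), which named 40340 of 41388 identifiers. Total counts per library were 5919389 to 25973968.

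The test was that of edgeR 4.0.16 (R 4.3.3), with TMM factors, filterByExpr with a minimum count of 10, a quasi-likelihood fit (robust) on layout plus genotype, and p-values adjusted by Benjamini-Hochberg across 12988 genes. Calls needed an adjusted p below 0.05. Each standard error is the log2 fold change over the square root of F, and intervals use the fit's degrees of freedom. Differences within a layout use log2 CPM with a prior count of 2. The fits were tested on simulated data with changes of 2-fold or more, so smaller changes like those of the nucleolar genes were not covered. Alternatives used RLE and upper-quartile factors, DESeq2 1.42.0, limma-voom (limma 3.58.1), no filter, other covariates and fewer libraries. Leaving out either paired-end library gives the comparison of single-end libraries alone, so these alternatives are not independent. Pseudogene copies were found with blastn 2.17.0.

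The members and lists were chosen with earlier results of these data known. Of 131 other assembly genes 130 were matched, of 8 snoRNA hosts 6, and the other lists in full. Named genes are the 3 of each role with the smallest p, the highest and lowest level per kilobase, called genes or else the 3 with the smallest p of each related list, and Myc, Atp7b, Cdkn1a, Mt1, Mt2 and Xist. In place of whole promoters, windows of at most 30 bases at the motif are printed, and 3 genes with the largest p were added to the 3 with the smallest.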

Additional observations from a re-analysis of the deposited data

How the results depend on the processing

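Of the 47 nucleolar genes, 1 was called with DESeq2 and 1 with no expression filter, Utp20 both times, and 0 under each of the other 13 alternatives. The set's median log2 fold change was -0.11 to 0.22 over the fits that leave out 1 library and moved by less than the 0.237 between-library SD under every alternative. The call of 1 other assembly gene became 3 with DESeq2 and with no filter. It became 0 with no layout term, with labelled sex replacing layout and in single-end libraries only. Over the fits that leave out 1 library it was 0 to 1. An alternative chosen after seeing the data left out wild type replicate 3 and Atp7b-/- replicate 3 together. Its layout term takes up wild type replicate 1. Only wild type replicate 2 then remains in that group, so calls in that fit carry little weight. Among Myc-driven growth genes outside the nucleolus 1 was called with no filter, and 0 to 1 without 1 library. Over all genes, 770 were called with DESeq2, 1116 with no filter, 126 in single-end libraries only, 0 with no layout term and 0 with labelled sex replacing layout, and 119 to 323 without 1 library, against 323. Ranges did not overlap in 0 nucleolar genes with RLE factors (8.57% of all genes tested) and in 4 with total counts only (10.4%), against 1 (8.51%). Of 555 values of 37 named genes under the alternatives, 26 lost a call of the main test and 5 gained a call. The lost calls were those of Atp7b, Cdkn1a, Mt1, Mt2, Myc and Rpp40. Another 12 values had the opposite sign, none of them called. Without both libraries these were Fbl (0.032), Ncl (0.15), Ddx21 (0.058), Rrp1b (-0.016) and Snhg12 (0.12). In single-end libraries only, Tsr1 stood at -0.16 and Snhg12 at 0.0078. Over the fits that leave out 1 library Tsr1 stood at -0.16 to 0.27, Snhg12 at -0.46 to 0.016 and Ddx21 at -0.30 to 0.12. Myc lost its call with no layout term (adjusted p = 0.109) and with labelled sex (0.491), where no gene was called. The causes were not tested. No paired analysis was possible because the replicate numbers were given in accession order and so link no samples across genotypes. Precision is limited by 3 libraries a genotype and by 24 to 163 counts for the lowest member of each library.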
